A study of Mus musculus with 4 samples.

Results

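The genes described here are those of the globin chains, of the first and last enzymes of heme synthesis, and of 3 other red cell proteins, measured in sorted regulatory T cells of mouse spleen and thymus. A probe was included when the gene name in the scanner files began with Hba- or Hbb-, or was Alas1, Alas2, Fech, Slc4a1, Klf1 or Ahsp. This gave 18 probes among the 55681 of the array, and 14 genes among its 34821 gene names. Of these probes, 11 belong to 8 globin genes. Hba-a1 and Alas2 were picked because they were higher on both deltaDC arrays than on the wild-type arrays of the same organ, so every difference between genotypes below is a description without a test.

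The RNA came from male C57BL/6 mice, either wild type (WT) or deltaDC, with no treatment named, and ages are not used here. The labels do not spell out deltaDC and name no allele or targeted gene. In the field the name stands for mice depleted of dendritic cells. Cells of 3 mice were pooled per genotype, spleen cells were enriched for CD4 T cells by negative selection, thymus cells were depleted of CD8-positive cells, and DAPI-negative cells carrying CD4 and CD25 were sorted as regulatory T cells (Tregs), a gate that does not use Foxp3. An input of 10 ng of RNA, with integrity numbers of 8.4 to 9.9, was labelled with Cy3 and hybridised to a one-colour array. Each genotype gave 1 array per organ, 4 in all, so no difference between arrays has a replicate check.

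Hemoglobin is built from alpha-like and beta-like globin chains, each of which holds a heme, and it fills the red cells of blood. Heme is made from glycine and succinyl-CoA in a chain of enzymatic steps that begins and ends in the mitochondrion. Alas2 catalyses the first step in red cell precursors, Alas1 catalyses the same step in other cells, and ferrochelatase (Fech) inserts the iron at the last step. In adult mice these precursors ripen in bone marrow and in the red pulp of the spleen.

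The sequences that carry the comparison are shown first, because the near identity of the globin genes sets what each probe can tell apart. The probes are 60 bases long and lie on the transcripts, starting at base 161 of the Hba-a1 transcript, base 195 of the Hbb-b2 transcript and base 177 of the Ahsp transcript. The Hba-a1 probe is placed by the files at chr11:32183955-32184014 of mm9, on the plus strand, within the Hba-a1 gene.
Hba-a1 probe: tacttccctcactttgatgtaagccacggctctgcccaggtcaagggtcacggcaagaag
Hbb-b2 probe: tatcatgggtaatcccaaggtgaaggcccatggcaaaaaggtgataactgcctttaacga
Ahsp probe: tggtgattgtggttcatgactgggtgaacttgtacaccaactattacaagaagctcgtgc
The accessions listed for the Hba-a1 probe include transcripts of both adult alpha-globin genes, as do those of the Hba-a2 probe, so the signals of these genes cannot be told apart. The Hbb-b1 probe carries an accession now named Hbb-bt, the adult t chain. The C57BL/6 reference holds Hbb-bs and Hbb-bt as its adult beta genes, while Hbb-b1 and Hbb-b2 are those of another haplotype, and which of these near-identical transcripts the Hbb-b2 probe binds in these mice was not tested.

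The 250 bases upstream of the start of Hba-a1, Hbb-bt and Alas2 are shown because the probes of these genes were higher on both deltaDC arrays in the measurements below. They are RefSeq sequences on GRCm38.p6, from chr11:32283422-32283671 (plus strand), chr7:103813924-103814173 (minus strand) and chrX:150547167-150547416 (plus strand). Capitals mark GATAA, the core of the motif read by GATA factors, and CACCC, the core read by Klf1, on either strand, where TTATC and GGGTG are the same motifs on the other strand.
Hba-a1 upstream: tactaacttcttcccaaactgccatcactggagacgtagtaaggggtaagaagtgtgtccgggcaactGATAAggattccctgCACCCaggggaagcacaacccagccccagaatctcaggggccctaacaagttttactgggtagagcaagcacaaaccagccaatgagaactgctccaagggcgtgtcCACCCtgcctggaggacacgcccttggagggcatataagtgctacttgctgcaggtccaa
Hbb-bt upstream: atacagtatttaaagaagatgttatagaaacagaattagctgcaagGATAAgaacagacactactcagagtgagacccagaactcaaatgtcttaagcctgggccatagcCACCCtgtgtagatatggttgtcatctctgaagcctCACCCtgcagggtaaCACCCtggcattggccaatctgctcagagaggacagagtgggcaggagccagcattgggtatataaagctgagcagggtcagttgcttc
Alas2 upstream: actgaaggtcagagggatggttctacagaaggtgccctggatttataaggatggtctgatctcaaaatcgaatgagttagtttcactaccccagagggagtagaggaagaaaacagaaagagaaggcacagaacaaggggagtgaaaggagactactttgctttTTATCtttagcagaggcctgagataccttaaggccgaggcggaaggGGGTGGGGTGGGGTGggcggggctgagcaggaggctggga
Hba-a1 held 1 GATAA, starting 182 bases before its start, and 2 CACCC, at 167 and 60 bases. Hbb-bt held 1 GATAA at 204 bases and 3 CACCC, at 140, 104 and 89 bases. In Alas2 the 1 GATAA lay on the minus strand at 86 bases, with 3 CACCC on the minus strand at 40, 35 and 30 bases. The upstream sequence of Hba-a2 matched that of Hba-a1 at 247 of 247 bases compared, at an offset of 3 bases. Alas1 has 2 annotated starts, each with 0 GATAA and 1 CACCC. Of 32851 promoters of the same length, 22.6% held GATAA, 52.0% held CACCC and 10.1% held both, on either strand, so a match to one of these short motifs is common and marks no site.

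The arrays were alike in quality. Between 48.7% and 50.7% of spots were well above background, a flag the scanner software sets for each spot, and 0 spots were saturated. Signals were scaled so that every array had the same 75th percentile, and are called scaled signals below. Levels of different probes are not comparable with each other, and the error given with a difference is the spread between repeated spots of 1 array (1 SD on the log2 scale, combined over both arrays), which holds no biological variation. The sorted populations carried the Treg genes, since 8 of 8 Treg markers were well above background on every array. Their summed scaled signals lay between 161084 and 170716, and 0 of 8 differed by 2-fold between genotypes in either organ. The largest difference was that of Il2ra, the gene of the CD25 used in the sort. It was lower on deltaDC in spleen (log2 -0.90 ± 0.07) and differed by -0.14 ± 0.07 in thymus. For Foxp3, the factor that defines Tregs, the scaled signal was 11653 (WT) and 10893 (deltaDC) in spleen, and 8853 (WT) and 10549 (deltaDC) in thymus.

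Of the 18 member probes, 8 were well above background on all 4 arrays, 2 on some and 8 on none. The first 8 were the probes of Hba-a1, Hba-a2, Hbb-b1, Hbb-b2, Alas2, Fech and both probes of Alas1. Slc4a1 and Ahsp passed on some arrays. The 7 probes of the 4 embryonic globin genes Hba-x, Hbb-bh1, Hbb-bh2 and Hbb-y, with scaled signals of 3.25 to 18.3, and the probe of Klf1, an activator of adult beta-globin in red cell precursors, passed on none. The Klf1 scaled signals were 4.82 (WT) and 8.61 (deltaDC) in spleen, and 4.36 (WT) and 7.86 (deltaDC) in thymus. The signal of the globin genes was thus that of the adult chains.

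Both adult alpha-globin probes were higher on the deltaDC array in each organ. The Hba-a1 probe had a scaled signal of 1266 (WT) and 3396 (deltaDC) in spleen, and 2803 (WT) and 11252 (deltaDC) in thymus. The deltaDC array was 2.68-fold higher in spleen (log2 difference 1.42 ± 0.08) and 4.01-fold higher in thymus (2.01 ± 0.08). The deltaDC thymus array stood clear of the other 3, and WT spleen was the lowest. The Hba-a2 probe read 7139 (WT) and 17822 (deltaDC) in spleen, and 13330 (WT) and 53102 (deltaDC) in thymus, which is 2.50-fold higher in spleen (log2 1.32 ± 0.07) and 3.98-fold in thymus (1.99 ± 0.07). The order of the arrays was the same as for Hba-a1. In these bulk RNA samples, more cells of a type and more RNA per cell cannot be told apart.

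The adult beta-globin probes had the same order. The Hbb-b1 probe read 699 (WT) and 2099 (deltaDC) in spleen, and 1123 (WT) and 4826 (deltaDC) in thymus. The deltaDC array was 3.00-fold higher in spleen (log2 1.59 ± 0.09) and 4.30-fold higher in thymus (2.10 ± 0.08). The Hbb-b2 probe read 28.4 (WT) and 88.6 (deltaDC) in spleen, and 68.9 (WT) and 307 (deltaDC) in thymus. Its genotype differences were 3.12-fold in spleen (log2 1.64 ± 0.37) and 4.46-fold in thymus (2.16 ± 0.16). The spleen value was 0.54 on the log2 scale under a normexp background model. A probe for Hbb-bs, the other adult beta chain of C57BL/6, is named Beta-s in the files and so lies outside the rule. It read 81.2, 189, 142 and 787 in the same array order, with log2 differences of 1.21 in spleen and 2.47 in thymus.

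**Figure D1:**
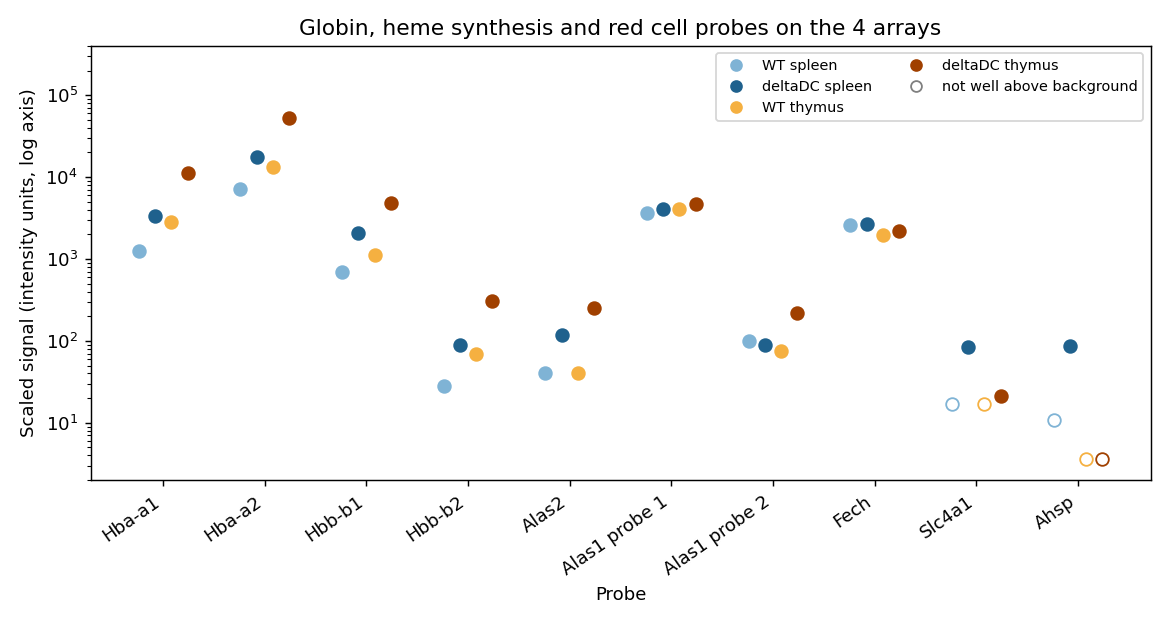
Scaled signal (intensity units, log axis) of the 10 member probes that were well above background on at least 1 array, with 1 point for each of the 4 arrays; open points were not well above background. The 4 adult globin probes and Alas2 are highest on deltaDC thymus, where Hba-a1 reaches 11252, while Slc4a1 (85.0) and Ahsp (86.0) are highest on deltaDC spleen.

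Alas2, the red cell form of the rate-limiting first enzyme of heme synthesis, was higher on both deltaDC arrays. Its probe, at chrX:147004993-147005052 of mm9 on the plus strand, read 40.4 (WT) and 119.7 (deltaDC) in spleen, and 40.3 (WT) and 249.8 (deltaDC) in thymus. The deltaDC array was 2.97-fold higher in spleen (log2 1.57 ± 0.37) and 6.20-fold higher in thymus (2.63 ± 0.37). Both WT arrays were at the same low level, within 2 spot errors of each other, which sets Alas2 apart from the globin probes in the order of the arrays. Under the normexp background model the Alas2 differences were 0.73 in spleen and 1.64 in thymus on the log2 scale.

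Alas1, the housekeeping form of the enzyme, had probes that disagreed. Probe 1, at chr9:106136284-106136343 of mm9 on the minus strand, read 3616 (WT) and 4127 (deltaDC) in spleen, and 4126 (WT) and 4634 (deltaDC) in thymus. These are log2 differences of 0.19 ± 0.08 in spleen and 0.17 ± 0.08 in thymus, so the 4 arrays lay close together. Alas1 probe 2, at chr9:106135796-106135855 and so further along the same transcript, read 99.9 (WT) and 89.6 (deltaDC) in spleen, and 76.3 (WT) and 220.1 (deltaDC) in thymus. It differed by -0.16 ± 0.17 in spleen and by 1.53 ± 0.16, or 2.89-fold, in thymus. Probe 2 was high on deltaDC thymus alone among the 4 arrays.

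Fech, the last enzyme of the pathway, showed no such difference. Its probe read 2603 (WT) and 2707 (deltaDC) in spleen, and 1975 (WT) and 2214 (deltaDC) in thymus. The genotype differences were 0.06 ± 0.08 in spleen and 0.16 ± 0.08 in thymus on the log2 scale, both within 2 spot errors. Both spleen arrays were above both thymus arrays.

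Slc4a1 and Ahsp, both late red cell genes, were high on deltaDC spleen and not on deltaDC thymus. Slc4a1, the anion exchanger band 3 of the red cell membrane, read 16.9 on WT spleen and 16.7 on WT thymus, neither well above background, 85.0 on deltaDC spleen and 21.0 on deltaDC thymus. The deltaDC spleen array was at least 4.36-fold higher than WT spleen, a bound that divides the bright signal by the dim one, or by the lowest spot signal flagged as well above background on the dim array (19.5 on WT spleen) where that is the larger. In thymus the like bound was 1.25-fold. Ahsp, the chaperone that binds free alpha-globin, read 10.8 (WT) and 86.0 (deltaDC) in spleen, and 3.63 (WT) and 3.58 (deltaDC) in thymus, and only deltaDC spleen was well above background. Between the genotypes the bound for Ahsp in spleen was at least 4.41-fold.

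Counted together, 8 member probes were measured on both spleen arrays and 5 of them were at least 2-fold higher on deltaDC, with 0 lower. Over all probes measured in spleen, 4.28% were at least 2-fold higher and 3.54% lower. Both members well above background on deltaDC spleen but not on WT spleen had a bound past 2-fold, against 23.8% of all such probes. Probes of this kind enter only through the array where they are bright. In thymus 6 of 8 measured members were at least 2-fold higher on deltaDC and 0 lower, where 0.796% of all probes were higher and 0.872% lower. The median log2 difference of the measured members was 1.37 in spleen and 2.0 in thymus. The 5 probes higher in both organs were the 4 adult globin probes and Alas2, and 0.171% of all probes measured on every array, 42 of 24577, were higher in both. Since the members were picked from this contrast, nothing is read from these shares. Under the normexp background model the spleen count was 3, without Alas2 and Hbb-b2.

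**Figure D2:**
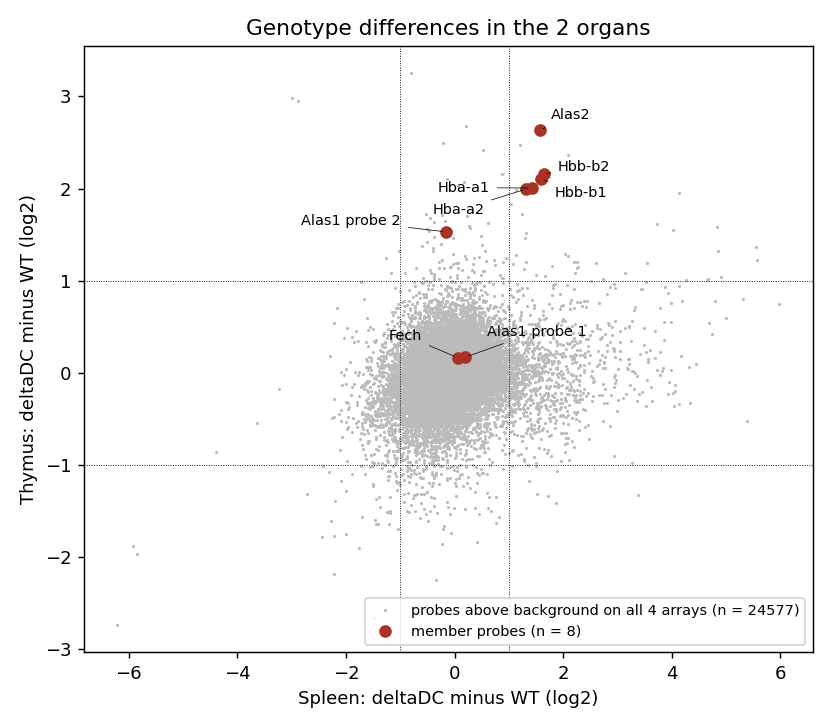
Log2 difference between deltaDC and WT in spleen (x axis) and in thymus (y axis) for the 24577 probes well above background on all 4 arrays (grey) and the 8 member probes among them (red); dotted lines mark 2-fold. Hba-a1, Hba-a2, Hbb-b1, Hbb-b2 and Alas2 lie above 2-fold in both organs, Alas1 probe 2 in thymus alone, and Fech and Alas1 probe 1 near 0.

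The adult globin probes differed more between genotypes in thymus than in spleen. The thymus difference exceeded the spleen difference by 0.58 ± 0.11 for Hba-a1, 0.67 ± 0.10 for Hba-a2, 0.52 ± 0.12 for Hbb-b1 and 0.51 ± 0.40 for Hbb-b2 on the log2 scale. For Alas2 the excess was 1.06 ± 0.53 and for Alas1 probe 2 1.69 ± 0.23. Alas1 probe 1 (-0.02 ± 0.11) and Fech (0.11 ± 0.11) had the same difference in both organs within the spot error. The values for Hbb-b2 and Alas2 lie within or near 2 spot errors, and with 1 array per group the difference between organs was not tested.

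The organs also differed within a genotype, a comparison that uses the same 4 arrays and so is tied to the values above. Hba-a1 was 2.21-fold higher in WT thymus than in WT spleen (log2 1.15 ± 0.08) and 3.31-fold higher in deltaDC thymus than in deltaDC spleen (1.73 ± 0.07). The Hba-a2 probe was 1.87-fold and 2.98-fold higher, Hbb-b1 1.61-fold and 2.30-fold, and Hbb-b2 2.43-fold and 3.46-fold. For each of these 4 probes the order from low to high was WT spleen, WT thymus, deltaDC spleen and, at the top, deltaDC thymus. The step from WT thymus to deltaDC spleen was the smallest for 3 of them, at 0.28 ± 0.08 for Hba-a1, 0.42 ± 0.06 for Hba-a2 and 0.36 ± 0.18 for Hbb-b2, and it was 0.90 ± 0.08 for Hbb-b1. No step was within 2 spot errors.

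Alas2 did not follow this order, since thymus exceeded spleen on the deltaDC arrays alone, by 2.09-fold (log2 1.06 ± 0.14). Slc4a1 was 4.06-fold lower on deltaDC thymus than on deltaDC spleen (log2 -2.02 ± 0.36), and Ahsp at least 5.45-fold lower. Of the members measured in both organs, 2 of 8 were at least 2-fold higher in thymus on the WT arrays, where 4.82% of all probes were, and 0 were lower, against 4.96%. On the deltaDC arrays 6 of 9 were higher, against 4.67%, and 1 was lower, against 5.35%. Under the normexp background model the WT difference of Hbb-b2 was 0.31, and the deltaDC differences were 0.76 for Alas2, 0.81 for Alas1 probe 2 and -0.83 for Slc4a1, all within 2-fold. The members thus split by organ on the deltaDC arrays, with the globins and Alas2 on the thymus side and Slc4a1 and Ahsp on the spleen side.

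The organ difference could be tested across genotypes, with WT and deltaDC standing in as replicates in a limma fit with terms for genotype and organ and 1 residual degree of freedom. Of 9 members tested, 0 passed a Benjamini-Hochberg adjusted p of 0.05, where 0.834% of all 27951 probes did, and 4 had an unadjusted p under 0.05. These 4 were the adult globin probes, and over all 27951 probes 5508 had an unadjusted p under 0.05. The 4 read near-identical genes, so they are not independent of each other. The limma estimate of thymus over spleen was 1.44 (SE 0.23, adjusted p = 0.13) for Hba-a1 and 1.54 (SE 0.22, adjusted p = 0.11) for Hbb-b2. It was 1.24 (SE 0.25, adjusted p = 0.16) for Hba-a2 and 0.94 (SE 0.22, adjusted p = 0.18) for Hbb-b1. All 4 were higher in thymus in both genotypes. The limma estimates for Alas2 (0.53, adjusted p = 0.45), Fech (-0.34, adjusted p = 0.36) and Slc4a1 (-1.02, adjusted p = 0.42) did not pass either.

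Among the enzymes of heme synthesis, each read by its brightest probe, Alas2 was the one that differed by 2-fold between genotypes. The dimmer Alas1 probe 2 was also past 2-fold in thymus (log2 1.53), and which Alas1 probe reads the transcript is not settled. All 9 genes of the pathway were measured on every array, and 1 of 9 was at least 2-fold higher on deltaDC in spleen (6.42% of all genes) and 1 of 9 in thymus (0.928%), with 0 lower in either. That gene was Alas2, which was picked from this contrast, so nothing is read from these shares. Its spleen difference was 0.73 on the log2 scale, below 2-fold, under the normexp background model. The median of the 9 was 0.19 in spleen and 0.16 in thymus on the log2 scale, against -0.0047 and 0.05 over all genes. Alad, the second enzyme, differed by 0.74 ± 0.09 in spleen and 0.15 ± 0.10 in thymus. The later enzymes Uros, Urod, Cpox and Ppox lay between -0.22 and 0.20 in spleen and between -0.27 and 0.25 in thymus. The pathway after its first step was therefore within 2-fold in both organs.

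**Figure D3:**
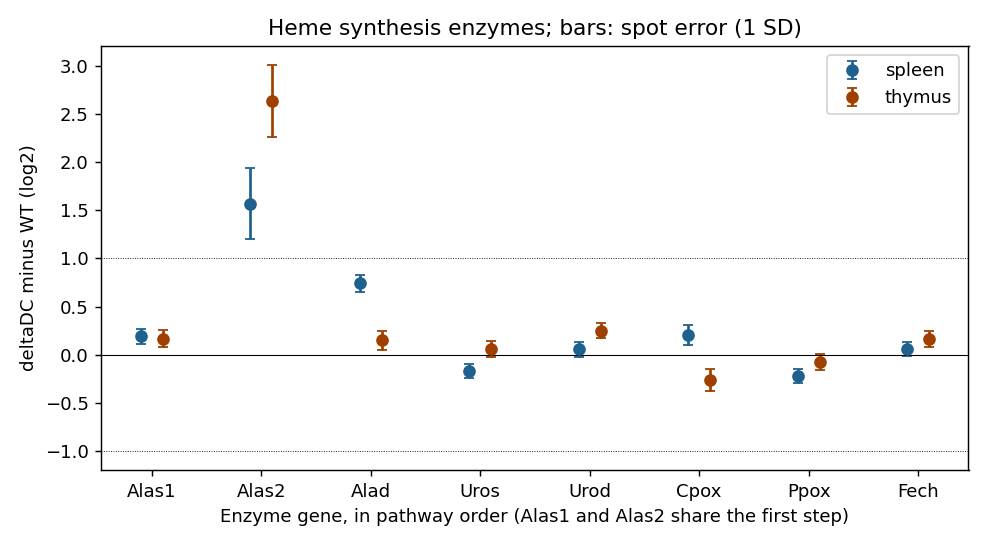
Log2 difference between deltaDC and WT for 8 heme synthesis genes in pathway order, in spleen and thymus, each from the brightest probe of the gene; bars are the spot error (1 SD), and dotted lines mark 2-fold. Alas2 (1.57 in spleen, 2.63 in thymus) is past 2-fold in both organs, and the other genes lie between -0.27 and 0.74.

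Genes that carry, break down or sense heme stayed within 2-fold. Of 17 measured, 0 were at least 2-fold higher or lower in either organ. Hebp1, a heme-binding protein, differed by 0.74 in spleen and 0.71 in thymus on the log2 scale, Abcb10, a mitochondrial transporter of red cell precursors, by 0.86 and -0.03, and Hmox1, which breaks heme down, by 0.54 and -0.15. Blvrb, a reductase of the breakdown path, differed by -0.19 and 0.61, and Tmem14c, which moves the heme precursor within mitochondria, by 0.33 and 0.28. Among iron genes, 1 of 14 was higher in spleen, the ferrireductase Steap3 (1.02 ± 0.37), and 0 of 15 in thymus. When each gene took its probes' median instead of the brightest probe, that spleen count was 0. Heph, a ferroxidase of iron export, was not well above background on WT thymus (4.14) and read 83.0 on deltaDC thymus, at least 5.30-fold higher. The others with the largest differences were the iron importer Slc11a2 (0.41 and 0.04), Iscu of iron-sulfur cluster assembly (0.18 and 0.29) and the iron sensor Aco1 (0.21 and -0.28). The transferrin receptor Tfrc, which brings iron into red cell precursors, was lower on both deltaDC arrays (-0.34 in spleen and -0.30 in thymus).

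The other red cell genes did not share the pattern of the globins. Of 21 genes of the red cell membrane, 11 were below the background flag on all arrays, and of those measured 0 of 7 in spleen and 0 of 8 in thymus differed by 2-fold. Sptb, the beta spectrin of the membrane skeleton, differed by 0.88 ± 0.37 in spleen, Slc14a1, a urea channel, by -0.51, and Tspo2 by 0.50. Among transcription factors of red cell precursors, Gata1 was lower on deltaDC spleen (5139 on WT, 2085 on deltaDC, log2 -1.30) and differed by 0.28 in thymus. Lmo2, a partner of Gata1, was higher by 1.47 in spleen and by 0.71 in thymus, and Gfi1b, a repressor of red cell and platelet precursors, by 1.31 ± 0.40 in thymus. Over that list, 1 of 9 measured in spleen was at least 2-fold higher and 1 lower, and 1 of 13 in thymus was higher. Nfe2, an activator of globin genes, had a spleen bound of at least 5.52-fold. In a list of other red cell genes, the carbonic anhydrase Car2 was higher by 1.18 in spleen and 0.90 in thymus. Xpo7, a nuclear transport factor, was lower on deltaDC in each organ (-1.29 in spleen, -0.996 in thymus). Car1, a carbonic anhydrase abundant in red cells, had a spleen bound of at least 2.72-fold. Globins outside the adult blood set, namely the 4 embryonic genes with Hbq1a, Hbq1b, Cygb, Ngb and Mb, were 9 in all and none was well above background on any array.

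A list of 20 erythroid markers that are no members gave the level of red cell precursors by other genes. The number well above background was 8 (WT) and 11 (deltaDC) in spleen, and 10 (WT) and 10 (deltaDC) in thymus. Their summed scaled signal was 38129, 28977, 33491 and 29456 in that order, and Hemgn alone gave 31176, 24282, 29091 and 24325 of it. Without Hemgn the other 19 markers summed to 6952 (WT) and 4694 (deltaDC) in spleen, and to 4400 (WT) and 5131 (deltaDC) in thymus, so the direction in thymus rests on Hemgn. Of these spleen sums Gata1 alone gave 5139 (WT) and 2085 (deltaDC), so without Hemgn the direction in spleen rests on Gata1. Of the 20, 8 were below the background flag on all 4 arrays, among them Epb42, Rhag, Kel and Cldn13. In spleen, Rhd, Car1 and Tfr2 were well above background on deltaDC alone, with bounds of at least 1.12-fold, 2.72-fold and 1.36-fold. In spleen 0 of 8 measured markers were at least 2-fold higher on deltaDC and 1 was lower, and in thymus 1 of 10 was higher. Within the spleen markers, Sptb (log2 0.88), Bpgm (0.58), Tspo2 (0.50), Icam4 (0.43) and Ermap (0.14) were higher on deltaDC. Gata1 (-1.30), Hemgn (-0.36) and Epor (-0.21) were lower.

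**Figure D4:**
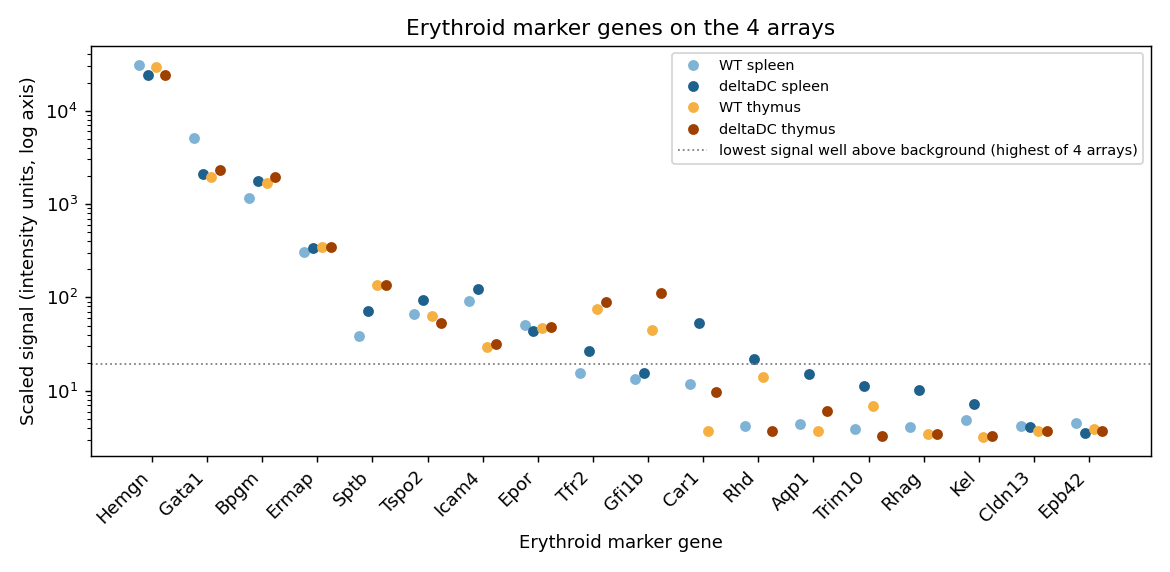
Scaled signal (intensity units, log axis) of 18 of the erythroid marker genes that are no members, with 1 point for each of the 4 arrays; the dotted line is the lowest spot signal well above background, taken from the array where it is highest (19.5). Hemgn, Gata1 and Bpgm are bright on every array, while Rhag, Kel, Cldn13 and Epb42 stay below the line on all 4.

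Markers of other cell types moved with the genotypes, and their part in the globin values was not tested. Of 14 neutrophil markers, the number well above background was 3 (WT) and 13 (deltaDC) in spleen and 7 on each thymus array. Their summed scaled signals were 269 (WT) and 10803 (deltaDC) in spleen, and 1012 and 2533 in thymus. The granule gene Camp was higher on deltaDC in both organs (log2 4.66 in spleen, 1.01 in thymus), as were S100a8 (at least 76.2-fold in spleen, log2 2.85 in thymus) and S100a9 (at least 332-fold in spleen, log2 2.79 in thymus). Of 11 red pulp macrophage markers, 5 of 10 measured in spleen were at least 2-fold higher on deltaDC, among them Cd5l (1.62), Adgre1 (1.27) and C1qb (1.23), and 0 of 7 in thymus, with sums of 2324, 4244, 1417 and 1741 in the same order. In thymus Cd5l was not well above background on WT (8.14) and read 37.3 on deltaDC, at least 2.38-fold higher. Marco was dim on deltaDC thymus and at least 1.54-fold lower there than on WT thymus. Both the neutrophil and the macrophage list were highest on deltaDC spleen, as Slc4a1 and Ahsp were.

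Of 10 B cell markers, 0 of 4 measured in spleen and 5 of 8 in thymus were at least 2-fold higher on deltaDC, among them Vpreb3 (3.25) and Fcrla (1.84), and their sums were 2172, 2059, 3601 and 7350. The B cell sum was highest on deltaDC thymus, as the globins were. Of 8 blood progenitor markers, 3 of 4 were higher in spleen, namely Kit (2.64), Meis1 (1.51) and Ly6a (1.17), and 2 of 5 in thymus, Cd34 (1.52) and Meis1 (1.06), with sums of 8044, 18450, 4879 and 6057. Ly6a alone gave 7867, 17675, 2832 and 3082 of these sums, so their order over the arrays rests on Ly6a. Platelet markers were dim throughout, with sums of 146 to 338, and Pf4 was higher on deltaDC spleen (1.23).

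Genes with the pattern most like a member's were found by the root mean square difference of the log2 values over the 4 arrays, each centred on its own mean, among 12279 genes. The 5 most like Hba-a1 were Hbb-bs (0.18), Apoc1 (0.26), Igf2bp3 (0.27), Aldh3b1 (0.45) and Tnfrsf13c (0.45). The 5 most like Alas2 were Igf2bp3 (0.41), Anp32a (0.42), Tiam2 (0.45), Hbb-bs (0.47) and Pkhd1 (0.49). Among members, Hbb-b2 and Hba-a2 lay at 0.11 from Hba-a1, Hbb-b1 at 0.26 and Alas2 at 0.51, while Fech lay at 1.20. With 4 arrays this likeness is a description.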

How the data were processed

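Each of the 4 samples is 1 array. The deposited intensity values come from Agilent Feature Extraction 10.7.3.1, per the file headers, with background subtracted and spatial trends removed inside each array and no scaling between them. Flags per spot stand beside them. Per the file headers, the authors' matrix holds background-subtracted, quantile-normalized log2 values (column medians 4.10 to 4.15). Its r with the scanner values was 0.997 to 0.998 across spots, and its offset and rescaling stay unknown. It was used as an alternative only.

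Spots with an outlier flag (110 to 168 per array) were left out. Of the log2 intensities the array's own 75th percentile (340.2 to 418 before the log) was subtracted, and spots of a probe were averaged. Genes of lists took the brightest probe. Of 55681 probes, 27509 were named by accession, 3549 by symbol and 24623 not. Scaled signals use a common percentile of 388. Probes well above background on both arrays were compared at 2-fold; others got a bound. Spot errors came from 399 probes spotted 10 times. The organ fit used limma 3.58.1 in R 4.3.3, on probes above background on at least 2 arrays. It was run on simulated data with organ differences larger than any member's estimate, so that check does not cover differences of the members' size.

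The members and lists were chosen with earlier results of these data known. The rule named every member and heme synthesis gene, from each other list the genes 2-fold higher or lower in both organs and the largest 3 differences per organ, and the 5 nearest by pattern to Hba-a1 and to Alas2. Other genes, among them those given with a bound, the dim erythroid markers and those of the closing section, were named after their values were seen. Values of some genes of the lists are not reported here, though they count in the lists. The number of arrays, 4, limits the precision, and signals near background carry the largest spot error. Alternatives were a normexp background with offset 50, centring on the median, quantile normalization, the matrix, other probe filters and folds of 1.5 and 3.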

Additional observations from a re-analysis of the deposited data

How the results depend on the processing

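The members' differences kept their direction under each alternative, apart from Alas2 between the WT organs (-0.0017), which was 0.0058 when arrays were centred on the median. In spleen the count of 5 members at least 2-fold higher on deltaDC was 3 with normexp, 8 with no background filter and 2 at 3-fold, and in thymus the count of 6 stayed within 1.5 times of that. Between the WT organs the count of 2 was 1 with normexp, 4 at 1.5-fold and 0 at 3-fold. Between the deltaDC organs the count of 6 was 2 at 3-fold. In the limma organ fit the count of 0 became 1 with normexp (Hba-a1, adjusted p = 0.035), and the smallest adjusted p of a member was 0.035 to 0.14 over the alternatives. Over all probes that fit called 233, against 964 with normexp, 164 with centring on the median, 0 with quantile normalization or the matrix, 686 without a filter and 23 with probes above background on all 4 arrays. Of 33 member values, 20 of them past 2-fold, normexp took 6 below 2-fold and the matrix 1. The cause was not tested. The limma fit compares the organs within each genotype through its genotype term. No further paired analysis was possible because each group has 1 array and the labels give no replicate numbers, and no array could be left out. Signals under 50 had a spot error of 0.34 to 0.37 on the log2 scale, which limits Alas2 on the WT arrays, Hbb-b2 on WT spleen, and Slc4a1 and Ahsp where they were dim.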

Other observations

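Several genes of iron and heme differed between the organs in both genotypes. Hmox1, which breaks heme down, had a scaled signal of 913 on WT spleen and 169.8 on WT thymus, and of 1326 on deltaDC spleen and 152.9 on deltaDC thymus. Slc40a1, the iron exporter ferroportin, was also lower in thymus, by a log2 difference of -2.38 ± 0.39 on the WT arrays and -2.30 ± 0.36 on the deltaDC arrays. The transferrin receptors went the other way. Tfrc was higher in thymus by 1.05 ± 0.03 in WT and 1.09 ± 0.04 in deltaDC, and Tfr2 was at least 3.88-fold higher on WT thymus and higher by 1.76 ± 0.39 on deltaDC thymus.

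Several transcription factors known from red cell and platelet precursors were brighter in thymus. Nfe2 read 775 on WT thymus and 13.5, not well above background, on WT spleen, a difference of at least 39.7-fold, and was higher by 2.92 ± 0.14 on deltaDC thymus. Bcl11a, which silences fetal globin and also acts in lymphocytes, was at least 9.63-fold higher on WT thymus and at least 20.7-fold on deltaDC thymus. Gata1 was lower on WT thymus than on WT spleen, by -1.41 ± 0.08, and on the deltaDC arrays thymus exceeded spleen by 0.17 ± 0.08. With 1 array for each group, these differences have no replicate check.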
